A study of Mus musculus with 10 samples.

Results

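A set of 10 genes that hold back the cell cycle or respond to stress was followed across reprogramming: the CDK inhibitors *Cdkn1a* (p21), *Cdkn1b* (p27), *Cdkn1c* (p57), *Cdkn2a* (p16Ink4a and p19Arf), *Cdkn2b* (p15), *Cdkn2c* (p18) and *Cdkn2d* (p19Ink4d), and the regulators *Trp53* (p53), *Mdm2* and *Rb1*. They were chosen by name, with earlier results of these data known. All 10 were found among the 18901 genes of the table and among the 17075 that passed the filter on low values. The RNA came from 10 libraries of 5 mouse lines with a strain background crossed from mf1 and 129, and each line gave 2 libraries. Oct4-GFP MEF, the embryonic fibroblasts that served as the source, were taken at passages 2 and 4, and the pre-iPS line, the 'control' iPS line and the Netrin-1 derived iPS clone1 and clone2 at passages 5 and 25. The reprogrammed lines carry retroviral Oct4, Sox2, Klf4 and c-Myc, grew in serum replacement medium with LIF on gelatin or irradiated MEF feeders, and share the Oct4-GFP reporter with the MEF, which grew in fetal serum. Pre-iPS cells are a line halted on the way to pluripotency: the retroviral factors are still on and Oct4-GFP is still off. Each line is 1 culture, so a p-value compares these lines and passages and not independently derived clones.

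In the Ink4 branch, p16, p15, p18 and p19Ink4d bind CDK4 and CDK6 and keep them from their D cyclins. In the Cip/Kip branch, p21, p27 and p57 bind cyclin-CDK2 complexes. When these kinases are held back, Rb protein stays bound to E2F factors and S-phase genes stay off. p19Arf, read from the same gene as p16 in another frame, inhibits Mdm2, the ubiquitin ligase that degrades p53, and p53 in turn switches on *Cdkn1a* and *Mdm2*. The Ink4/Arf locus and p53 are known barriers to reprogramming, and cultured fibroblasts raise them as they approach senescence. These mechanisms act largely on proteins, which were not measured.

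The mRNA values are pseudo-counts, that is, read counts per gene that the authors scaled to a common library size by means of edgeR. Their totals still differed, at 56073322 and 55886953 in MEF against 39745507 to 41892877 in the other libraries. Relative to equal totals this scaling raises the MEF values, and scaling to equal totals was not tested. Depth was 38110410 to 52946856 reads on genes per library. Differences were tested with limma on log2(value + 1) with 1 mean per line over all 10 libraries. The stricter of the 2 rules used here asked for an adjusted p (Benjamini-Hochberg) below 0.05 and a fold threshold, a log2 fold change of 1 or more in either direction, and the looser rule asked for the adjusted p alone. The 2 MEF libraries were much closer to each other than those of any other line: the chi-square of their counts was 2.69 per degree of freedom, above counting error, against 35.3 to 49.6 in the other lines. All comparisons between lines share 1 estimate of the spread. The close MEF libraries enter it even where MEF are not compared, so p-values between the other lines may be too small. The lines also differ in *Xist*, the X-inactivation transcript, which stood at 144 to 317 in the control and clone 1 libraries, at 16030 to 22076 in pre-iPS and clone 2, and at 52735 and 52989 in MEF, and its part in any difference was not tested. The labels held against their markers: the 8 pluripotency markers summed to 206 and 186 in MEF, to 19245 and 20375 in pre-iPS and to 35432 to 83400 in the iPS libraries, and all 10 fibroblast markers were higher in MEF.

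*Cdkn2a* and *Cdkn2b* are neighbours on chromosome 4 (GRCm38, minus strand), at 89274471 to 89294653 and 89306299 to 89311039. *Cdkn2a* has 2 start sites, the Arf start upstream and the Ink4a start further down, which feed into shared exons. The table holds 1 value for both, so Arf and Ink4a transcripts could not be told apart. The 250 bases before each start site of the locus are shown because the 2 genes, although neighbours, were left at very different levels in the reprogrammed lines. They are RefSeq windows on GRCm38.p6, written 5′ to 3′ on the minus strand, at chr4:89294620-89294869, chr4:89282193-89282442 and chr4:89311033-89311282 in that order. Capitals mark matches to an E2F motif (TTTGGCGC, TTTCCCGC or TTTCGCGC) or an Sp1 box (GGGCGG), searched on both strands.
Cdkn2a, Arf start: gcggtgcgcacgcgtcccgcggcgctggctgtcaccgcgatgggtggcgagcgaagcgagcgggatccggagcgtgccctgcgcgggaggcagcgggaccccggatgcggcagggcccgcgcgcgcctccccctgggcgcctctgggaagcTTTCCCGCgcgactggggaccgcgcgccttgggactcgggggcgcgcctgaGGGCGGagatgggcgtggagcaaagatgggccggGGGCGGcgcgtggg
Cdkn2a, Ink4a start: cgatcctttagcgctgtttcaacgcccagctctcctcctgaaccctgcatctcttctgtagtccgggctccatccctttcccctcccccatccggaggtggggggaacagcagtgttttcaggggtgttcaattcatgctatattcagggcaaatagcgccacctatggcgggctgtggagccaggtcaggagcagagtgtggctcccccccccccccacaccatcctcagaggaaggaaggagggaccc
Cdkn2b: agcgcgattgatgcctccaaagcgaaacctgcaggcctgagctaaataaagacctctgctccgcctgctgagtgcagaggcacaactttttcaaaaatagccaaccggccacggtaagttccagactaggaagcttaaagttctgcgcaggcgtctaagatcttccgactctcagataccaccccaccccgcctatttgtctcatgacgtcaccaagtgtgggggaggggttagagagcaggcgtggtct

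The Arf window held 1 E2F match, 2 Sp1 boxes and 40 CpG, a CpG number reached by 1.3% of the 32851 mouse windows of the same length. The Ink4a and *Cdkn2b* windows held 7 and 12 CpG and no match to either motif, and the median window held 6 CpG. Of all windows, 1.53% held an E2F match and 32.7% an Sp1 box. Windows were found for 8 of the 10 genes (11 windows) and not for *Cdkn1c* and *Rb1*. Among the other windows, none held the E2F letters, while the p53 half-site consensus, which 7.13% of all windows match, was found 2 times before the upstream start of *Cdkn1a* and 1 time each before *Cdkn2d*, *Trp53* and *Mdm2*. A match is a run of letters and not a bound site.

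**Figure D1:**
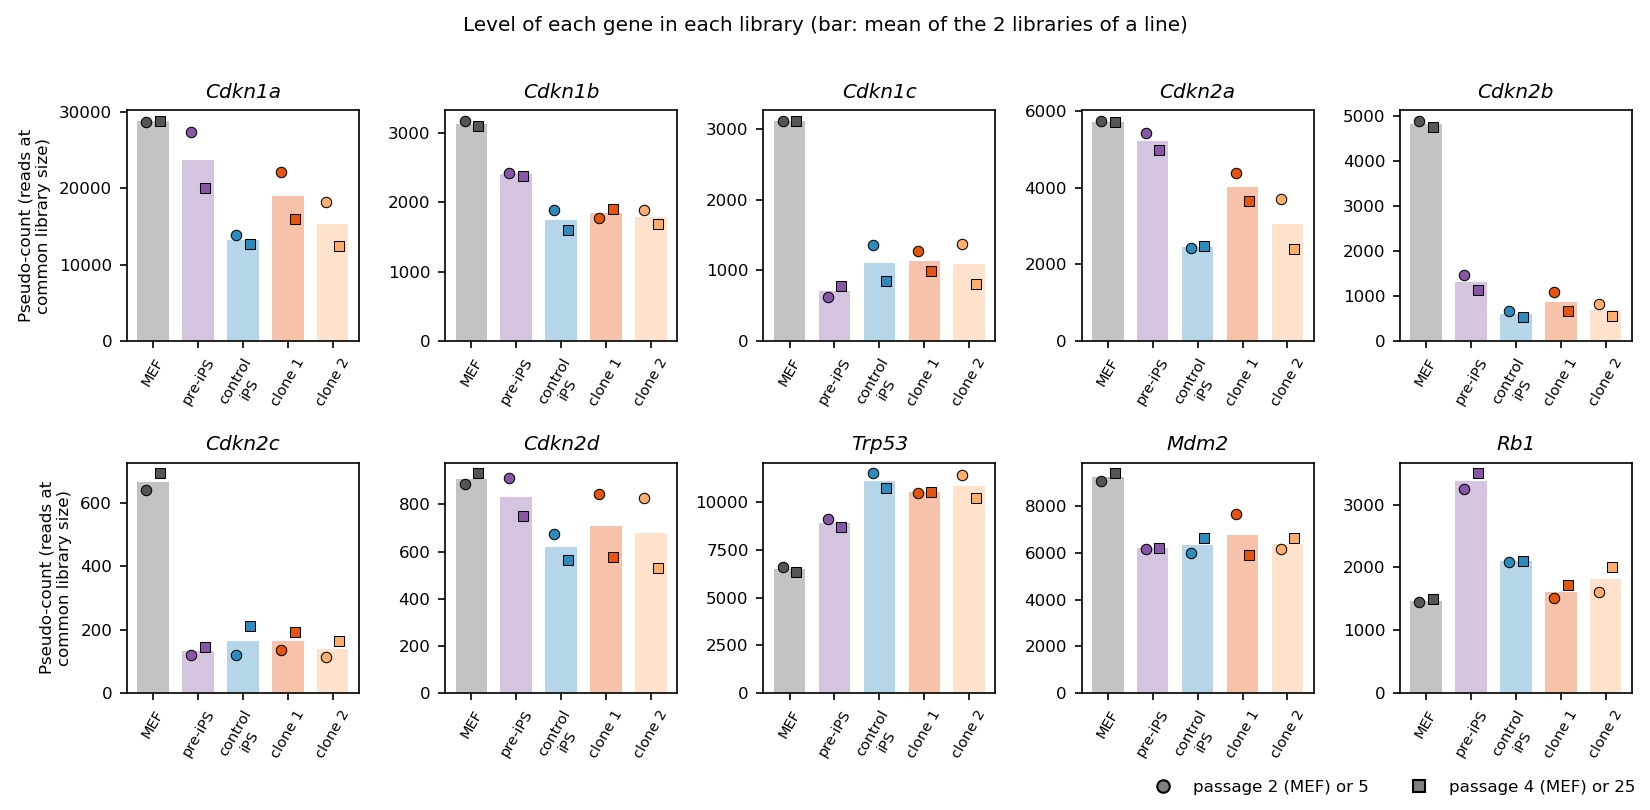
Pseudo-count of each gene (y axis, linear from 0, one scale per gene) in the 10 libraries by line (x axis), with circles for the earlier and squares for the later passage and bars for the mean of the 2 libraries. The Cdkn2b, Cdkn2c and Cdkn1c bars stand tallest in MEF, Rb1 in pre-iPS at 3254 and 3495, and Trp53 in the iPS lines at 10211 to 11496.

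The first question was how the fibroblasts differ from the iPS lines made from them. Of the 10 genes, 7 were higher in MEF by adjusted p, namely *Cdkn1a*, *Cdkn1b*, *Cdkn1c*, *Cdkn2a*, *Cdkn2b*, *Cdkn2c* and *Mdm2*. *Trp53* and *Rb1* were lower, and *Cdkn2d* did not pass the test. That is 9 of 10 genes where 79.3% of all tested genes passed the same test, so the number itself sets these genes little apart. With the fold threshold added, 3 of 10 were different (*Cdkn2b*, *Cdkn2c* and *Cdkn1c*, all higher), beside 48.2% of all genes. The median log2 fold change of the 10 was 0.85, against -0.09 over all genes.

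*Cdkn2b*, whose protein p15 inhibits CDK4 and CDK6, showed the widest difference of the 10. Its value was 4884 and 4755 in MEF at passages 2 and 4. In the 6 iPS libraries it ran from 525 through a median of 660 to 1096, so that the iPS mean was 14.9% of the MEF mean. The groups lay far apart, and MEF exceeded iPS by 2.79 on the log2 scale (SE 0.22, adjusted p = 4.13e-06 in limma). *Cdkn2c*, which encodes the related inhibitor p18, had values of 641 and 692 in MEF and 115 to 211 (median 149) in iPS, with no overlap. Its log2 fold change was 2.12 (SE 0.25, limma adjusted p = 5.87e-05). *Cdkn1c* encodes p57 and is an imprinted gene. It stood at 3109 and 3108 in MEF and at 808 to 1370 (median 1132) in iPS, a difference of 1.52 on the log2 scale (SE 0.23, adjusted p = 0.000297 in limma). Antisense Gm44732 covers 30.7% of the exonic bases of *Cdkn1c*, and since the library kit does not mark strand, reads there cannot be assigned to 1 of the pair.

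*Cdkn2a*, the neighbour of *Cdkn2b*, kept more of its MEF level. It read 5733 and 5717 in MEF and 2394 to 4376 (median 3064) in the iPS libraries, so that iPS cells kept 55.4% of the MEF mean (log2 fold change of MEF against iPS 0.89, SE 0.15, limma adjusted p = 0.000442). The ratio of *Cdkn2a* to *Cdkn2b* was 1.17 and 1.2 in MEF and 3.68 to 5.53 in all 8 other libraries, without overlap. Per kilobase of exon, the MEF means were 4880 for *Cdkn2a* and 3470 for *Cdkn2b*, and the iPS means 2710 and 517. In bulk RNA, fewer cells that express a gene and less RNA per cell cannot be told apart.

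Fibroblast RNA in the iPS and pre-iPS libraries, from feeders or other cells, was gauged by 10 fibroblast markers. Their sum in these 8 libraries was 0.719 to 1.36% of the MEF mean, and no marker was at 0. As percent of MEF, single markers in the iPS mean ran from 0.328% for *Postn* to 26.4% for *Twist2*, with 0.67% for *Col1a1* and 0.567% for *Col3a1*. In the same 8 libraries *Cdkn2a* was 41.8 to 94.9% and *Cdkn2b* 10.9 to 30.6% of the MEF mean. The clone 1 library at passage 5 had the highest fibroblast sum, at 1.36%, and among iPS libraries also the highest *Cdkn2a*, *Cdkn2b*, *Cdkn1a* and *Mdm2*. Pre-iPS at passage 5, with a sum of 0.881%, stood above that library in *Cdkn2a* (5434 against 4376), *Cdkn2b* (1476 against 1096) and *Cdkn1a* (27395 against 22082). It stood below it in *Mdm2* (6173 against 7648). The control at passage 25 and clone 2 at passage 5 had sums of 1 and 1.02%, and *Cdkn2a* of 2471 and 3707. Whether feeder cells carry more of these transcripts per marker than the MEF libraries do was not tested. Macrophage markers, such as *Lyz2*, were also read in MEF. Of 8 such markers 7 were higher in MEF by both rules, and their sum in the other libraries was 4.71 to 15.5% of the MEF mean. Most of that sum was *Cd68*, the marker that did not pass, with means of 741 in MEF, 1210 in pre-iPS and 754 in iPS. The median marker stood at 1.55 to 5.09% of MEF in these libraries. The part of macrophages in the MEF levels of the 10 genes was not tested.

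**Figure D2:**
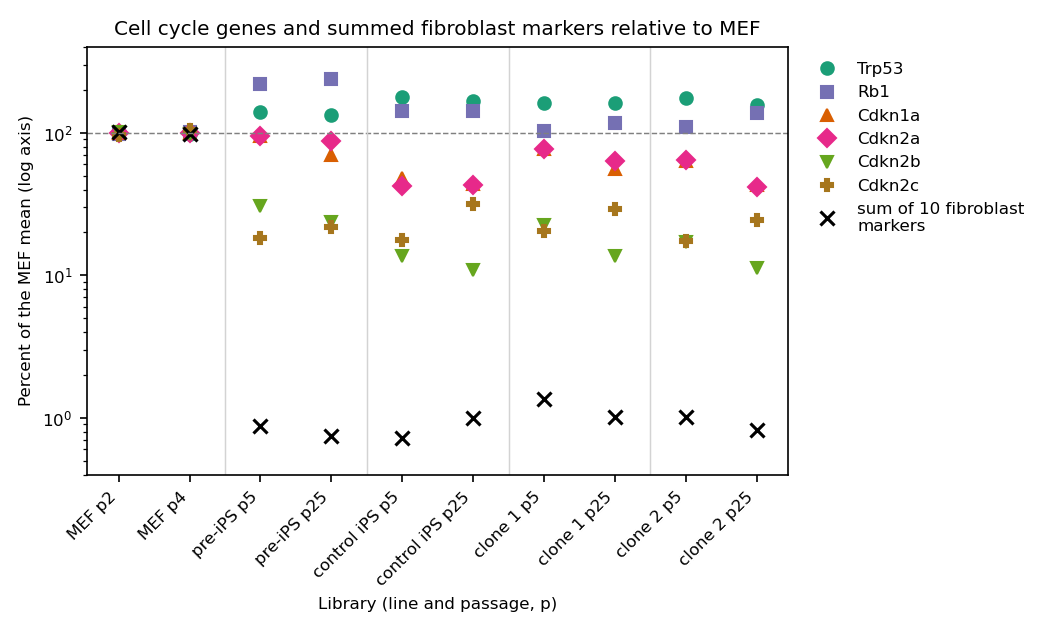
Level of Trp53, Rb1, Cdkn1a, Cdkn2a, Cdkn2b and Cdkn2c, and of the sum of 10 fibroblast markers, as percent of the MEF mean (y axis, log scale) in each of the 10 libraries (x axis, with p for passage). The marker sum lies at 0.719 to 1.36% outside MEF, while Cdkn2b lies at 10.9 to 30.6% and Cdkn2a at 41.8 to 94.9%.

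In the Cip/Kip branch, *Cdkn1a*, the p53-inducible inhibitor p21, was the most abundant of the 10 genes per kilobase in all 3 kinds of cells, with means of 8090 in MEF, 6670 in pre-iPS and 4470 in iPS. Its pseudo-counts were 28735 and 28780 in MEF and 12412 to 22082 (median 14922) in iPS, with no overlap. The log2 fold change was 0.89 (SE 0.18, limma adjusted p = 0.00154), but 0.34 (adjusted p = 0.087) after quantile normalization. *Cdkn1b*, which encodes p27, stood at 3172 and 3102 in MEF and 1596 to 1910 (median 1837) in iPS. Its groups were clearly separate and its spread small (log2 fold change 0.81, SE 0.08, limma adjusted p = 2.35e-05). *Cdkn2d* gave 886 and 931 in MEF and 529 to 842 in iPS. The groups did not overlap, yet the difference of 0.46 (SE 0.2) had an adjusted p of 0.0582 in limma, and it passed at 0.56 without clone 1 passage 5 (0.0243), at 0.57 without clone 2 passage 5 (0.0154) and at 0.85 with housekeeping scaling (0.00342).

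*Trp53* went the other way from the inhibitors. Its values were 6629 and 6341 in MEF and 10211 to 11496 (median 10648) in iPS, 167% of the MEF mean. The groups did not overlap, and the log2 difference, MEF less iPS, came to -0.74 (SE 0.06, adjusted p = 6.99e-06 in limma). *Mdm2*, both a target and the main inhibitor of p53, was opposite to it, at 9054 and 9388 in MEF and 5889 to 7648 (median 6383) in iPS. Its log2 fold change was 0.51 (SE 0.1, limma adjusted p = 0.00107), or 0.18 (adjusted p = 0.13) after quantile normalization. The ratio of *Mdm2* to *Trp53* was thus 1.37 and 1.48 in MEF and 0.522 to 0.73 in the other libraries, and the ratio of *Cdkn1a* to *Trp53* 4.33 and 4.54 in MEF and 1.18 to 3 elsewhere. *Rb1*, the pocket protein gene, read 1444 and 1499 in MEF and 1509 to 2106 (median 1867) in iPS, groups that almost touch. Its difference of -0.31 (SE 0.1, limma adjusted p = 0.0155) was not past the test without MEF passage 2 (adjusted p = 0.107) or passage 4 (0.0638), and it turned to 0.08 (adjusted p = 0.47) when the libraries were scaled to the housekeeping genes *Gapdh*, *Actb*, *Hprt* and *Tbp*. Of the exonic bases of *Rb1*, 14.9% are shared with *Rcbtb2* and *Lpar6* on the other strand.

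Housekeeping scaling moved the median of all genes by 0.39 in this comparison, where *Gapdh* itself differed by -0.96 and *Actb* by 0.45. The stricter rule then gave 5075 genes higher and 3647 lower in MEF in place of 3690 and 4547, and 6 of the 10 genes passed it. Because it shifts all genes together, differences taken relative to the median of all genes cannot show its effect. Quantile normalization does not shift all genes together, and relative to that median it gave 0.36 for *Cdkn1a* in place of 0.98 as deposited, and 0.64 for *Cdkn2a* in place of 0.98. It gave -1.05 for *Trp53* in place of -0.65 and -0.46 for *Rb1* in place of -0.22. Exact permutation tests of single genes, 2 libraries against 6, gave 0.0357, the smallest p they can give, for 8 of the 10 genes, 0.107 for *Cdkn2d* and 0.143 for *Rb1*. They were run on the 10 genes only, so the count has no share of all genes beside it. In limma 79.3% of all genes passed the adjusted p here, and the count does not set the 10 apart.

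The pre-iPS line was compared with the iPS lines to see how a halted line differs. By adjusted p, *Rb1*, *Cdkn2a*, *Cdkn2b*, *Cdkn1a* and *Cdkn1b* were higher and *Trp53* lower in pre-iPS, 6 of the 10 genes beside 39.6% of all genes. No gene of the 10 reached the fold threshold as well (0 of 10, with 7 at an unadjusted p under 0.05, and 0 by edgeR), beside 16.3% of all genes (804 higher and 1977 lower, or 1483 and 1426 after quantile normalization). Their median log2 fold change was 0.38, against 0 over all genes. With the passage as a replicate block 8 of the 10 passed the adjusted p, *Cdkn1c* (-0.63, adjusted p = 0.0327) and *Cdkn2d* (0.33, adjusted p = 0.0385) being added. The 39.6% of all genes belongs to the fit without the block and is no measure for this count. Over all genes the stricter rule took 2947 with the block in place of 2781.

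*Rb1* was the member with the smallest p in this comparison. Its values of 3254 and 3495 in pre-iPS lay above those of every other library, since the highest iPS value was 2106 and the highest MEF value 1499. The log2 fold change was 0.89 against iPS (SE 0.1, limma adjusted p = 0.000228), and MEF differed from pre-iPS by -1.2 (SE 0.12, adjusted p = 2.5e-05). *Cdkn2a* in pre-iPS, at 5434 and 4991, stood nearer to MEF than to iPS. It was higher than in iPS by 0.76 (SE 0.15, limma adjusted p = 0.00415), and the difference of MEF from pre-iPS was 0.14 (SE 0.18, adjusted p = 0.518), a value that was -0.1 after quantile normalization and 0.55 (adjusted p = 0.0219) with housekeeping scaling. *Cdkn1b*, at 2432 and 2376, lay between the MEF and the iPS libraries and differed from both, by 0.43 from iPS (SE 0.08, adjusted p = 0.00463) and by 0.38 in MEF against pre-iPS (SE 0.1, adjusted p = 0.00913, or 0.0562 without MEF passage 2 and 0.0963 after quantile normalization). These 3 genes stayed past the adjusted p against iPS in every alternative run.

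*Cdkn2b* lay between as well, at 1476 and 1137, with no overlap with MEF or iPS. It was higher than in iPS by 0.9 (SE 0.22, limma adjusted p = 0.0127), but without pre-iPS passage 5 the value was 0.71 (adjusted p = 0.123), and without pre-iPS passage 25 or clone 1 passage 5 it reached the fold threshold at 1.09 and 1.02. *Cdkn1a* read 27395 at passage 5 and 19979 at passage 25, the latter within the range of the iPS libraries of both passages. Within each passage pre-iPS lay above all 3 iPS lines, which read 13835 to 22082 at passage 5 and 12412 to 16010 at passage 25, and with the passage as a replicate block the adjusted p was 0.0013. Without the block, its difference of 0.59 (SE 0.18, adjusted p = 0.0294) was 0.36 without pre-iPS passage 5 (adjusted p = 0.267). It also missed the threshold in limma without control passage 25 (adjusted p = 0.0569), without either MEF library (0.0519 and 0.052) and when only the lines compared were fitted (0.0534). *Trp53*, at 9129 and 8693, was below all iPS and above both MEF libraries, by -0.28 against iPS (SE 0.06, adjusted p = 0.00893, or 0.0699 without pre-iPS passage 25). MEF were below pre-iPS by -0.46 (SE 0.08, adjusted p = 0.000707), which shrank to -0.04 (adjusted p = 0.651) with housekeeping scaling.

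*Cdkn1c* was at its lowest in pre-iPS, 624 and 781, just under the lowest iPS value of 808, and the difference from iPS of -0.63 (SE 0.23) had an adjusted p of 0.0609 in limma. It passed at -0.75 without control passage 25 (0.0286), at -0.76 without clone 2 passage 25 (0.0224) and at -0.7 after quantile normalization (0.0396). *Cdkn2c*, *Cdkn2d* and *Mdm2* overlapped between pre-iPS and iPS, with log2 fold changes of -0.19, 0.33 and -0.06. Against pre-iPS, MEF were higher in *Cdkn2c* by 2.31 (SE 0.31, adjusted p = 0.000174), in *Cdkn1c* by 2.15 (SE 0.29, 0.00016), in *Cdkn2b* by 1.89 (SE 0.27, 0.000251) and in *Mdm2* by 0.57 (SE 0.12, 0.0022, or 0.0906 after quantile normalization). In all, 4 of the 10 genes differed between MEF and pre-iPS beside 43.2% of all genes (3563 higher and 3820 lower in MEF, or 5006 and 2887 with housekeeping scaling), and 7 by adjusted p alone beside 70.6%. The comparisons with MEF and with pre-iPS share the iPS libraries and are not independent.

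**Figure D3:**
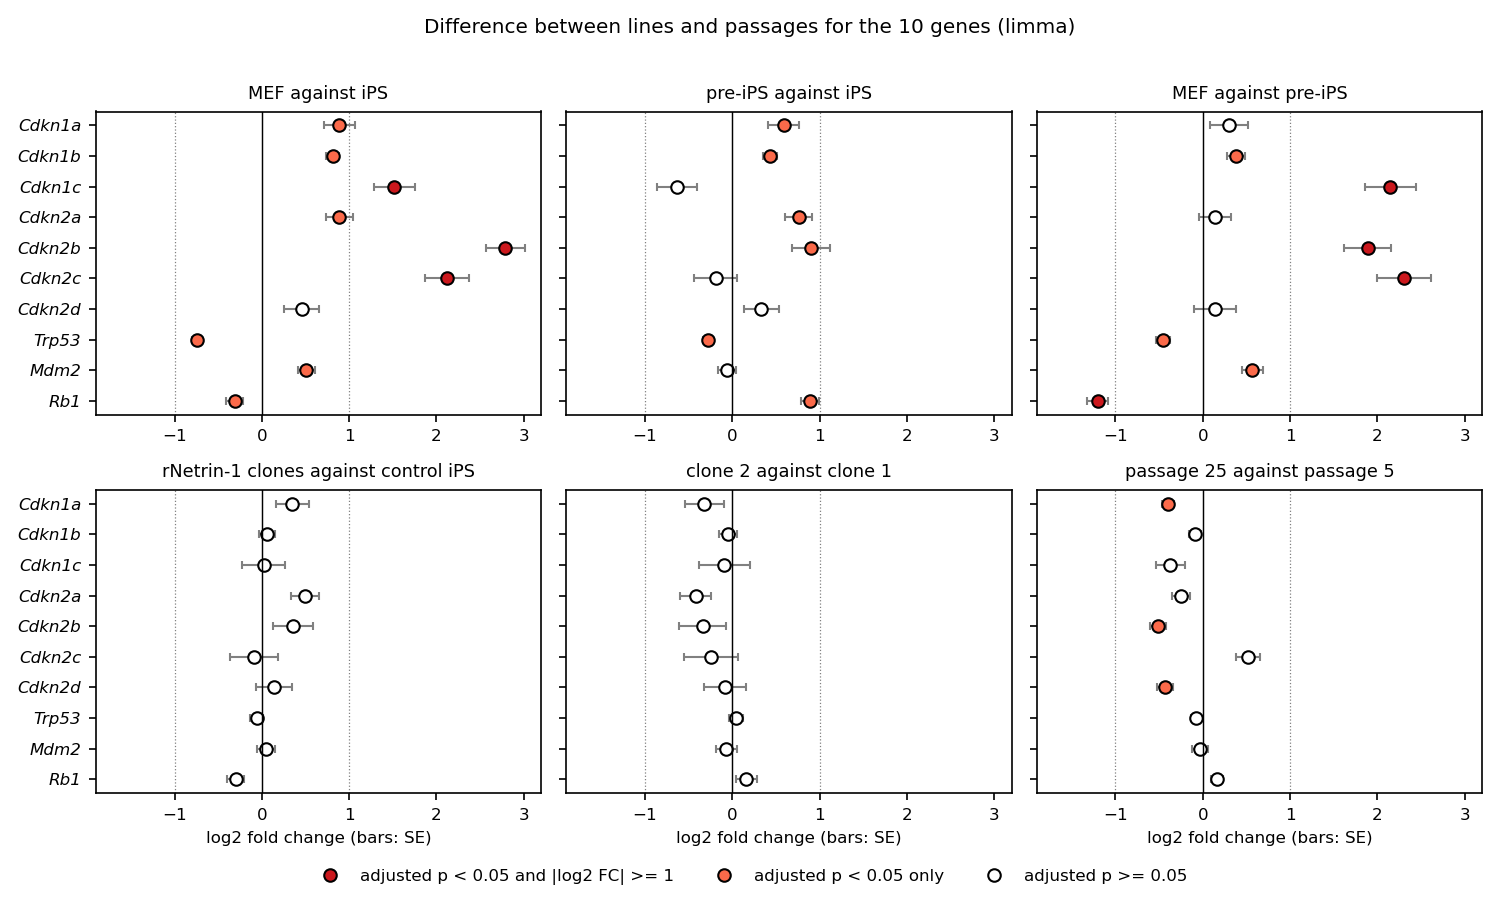
Log2 fold change (x axis) with its standard error (bars) for the 10 genes (y axis) in 6 comparisons, filled dark red where both the adjusted p (under 0.05) and the fold threshold are met, light red where only the adjusted p passes, and white otherwise. Dark points are seen in the 2 comparisons with MEF, 3 against iPS and 4 against pre-iPS, and all points of the comparisons between iPS lines are white.

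The comparison of the rNetrin-1-derived clones with the control line gave no difference in these genes past the threshold. None of the 10 passed by either rule in limma (0 of 10, with 2 at an unadjusted p under 0.05) or in edgeR (0, likewise 2 unadjusted), beside 2.11% of all genes by both criteria and 4.08% by adjusted p. With the passage as a replicate block it was again 0 by adjusted p, 4 unadjusted, while the number over all genes went from 360 to 564. *Cdkn2a* came nearest, with 4376 and 3657 in clone 1, 3707 and 2394 in clone 2, and 2425 and 2471 in the control at passages 5 and 25. Clone 1 and the passage 5 library of clone 2 were above the control and the passage 25 library of clone 2 was below it, so the groups overlapped. The difference was 0.5 (SE 0.16, limma adjusted p = 0.135; 0.0553 with the block), and without clone 2 passage 25 it was 0.65 (adjusted p = 0.0116). *Rb1* was lower in all 4 clone libraries (1509, 1721, 1608 and 2012) than in the control (2093 and 2106), by -0.3 (SE 0.1, adjusted p = 0.164; 0.0672 with the block; 0.0492 without clone 2 passage 25). The exact permutation p was 0.333 for *Cdkn2a* and 0.133 for *Rb1*, where 4 libraries against 2 cannot give less than 0.0667.

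For the other 8 genes the clones less the control gave 0.35 (SE 0.19) for *Cdkn1a*, 0.36 (SE 0.23) for *Cdkn2b* and between -0.09 and 0.14 for the rest. The tightest were *Trp53* at -0.06 (SE 0.07), *Cdkn1b* at 0.06 (SE 0.09) and *Mdm2* at 0.05 (SE 0.1). The widest were *Cdkn2c* (SE 0.27) and *Cdkn1c* (SE 0.25). A missed threshold does not show that the lines were alike. The clones were also compared with each other, and none of the 10 genes passed (0 by either rule, 1 unadjusted, *Cdkn2a*; 0 and 0 in edgeR), beside 0.966% of all genes by both criteria and 1.59% by adjusted p. *Cdkn2a* was lower in clone 2 than in clone 1 by -0.42 (SE 0.18, adjusted p = 0.286), about as much as the clones differed from the control, and without clone 2 passage 5 by -0.74 (adjusted p = 0.033). Beside this, the pluripotency markers *Esrrb* and *Zfp42* were higher in clone 2 by 2.35 and 2.27, and 3 of the 8 pluripotency markers passed, or 0 when only the 2 clones were fitted.

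In order of mean level, MEF came first for all 7 inhibitors and for *Mdm2*, and clone 1, clone 2 and the control followed each other in that order for *Cdkn1a*, *Cdkn1b*, *Cdkn2a*, *Cdkn2b*, *Cdkn2d* and *Mdm2*. Neighbours among these 3 iPS lines overlapped in each of those cases. For *Rb1* the order was pre-iPS, control, clone 2, clone 1 and MEF, and of its neighbours only the 2 clones overlapped. The fold from the highest to the lowest line mean was 8.15 for *Cdkn2b*, 4.97 for *Cdkn2c*, 4.42 for *Cdkn1c*, 2.34 for *Cdkn2a*, 2.29 for *Rb1*, 2.17 for *Cdkn1a* and 1.46 to 1.8 for the remaining 4.

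Passage 25 was compared with passage 5 within the 4 reprogrammed lines, with the line as a block. Longer culture cannot be told apart here from anything else that the libraries of a passage share, such as the time of harvest. *Cdkn2b*, *Cdkn2d* and *Cdkn1a* were lower at passage 25, each in 4 of 4 lines, and passed the adjusted p (3 of 10 genes, all lower, beside 10.9% of all genes in either direction). None reached the fold threshold too (0 of 10, with 6 at an unadjusted p under 0.05, and 0 by edgeR), beside 1.69% of all genes. The median log2 change of the 10 genes was -0.17, against -0.01 over all genes. The fibroblast marker sum also moved with passage. Clone 1 fell from 41655 to 31036, clone 2 from 31421 to 25169 and pre-iPS from 27051 to 23038. The control rose from 22078 to 30832, and none of the 10 fibroblast markers passed the adjusted p. The macrophage marker sum was lower at passage 25 in each of these lines, and 2 of its 8 markers were lower by adjusted p. The part of such cells in the passage changes was not tested.

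*Cdkn2b* went from 1476 to 1137 in pre-iPS and from 659 to 525 in the control. In clone 1 it went from 1096 to 661 and in clone 2 from 825 to 546. Together these steps came to -0.51 on the log2 scale (SE 0.09, adjusted p = 0.0176 in limma). *Cdkn2d* went from 912 to 749 in pre-iPS, from 676 to 564 in the control, from 842 to 577 in clone 1 and from 826 to 529 in clone 2, in all -0.43 (SE 0.09, adjusted p = 0.0301). *Cdkn1a* went from 27395 to 19979 in pre-iPS, from 13835 to 12654 in the control, from 22082 to 16010 in clone 1 and from 18249 to 12412 in clone 2, in all -0.4 (SE 0.07, adjusted p = 0.0197). Which line was left out mattered for all 3: without any 1 library of pre-iPS, clone 1 or clone 2, or with the 3 iPS lines only, none passed (adjusted p 0.054 to 0.168, changes of -0.35 to -0.55). Without either control library all 3 passed, with changes of -0.49 for *Cdkn1a* (adjusted p = 0.00792 and 0.00773), -0.57 for *Cdkn2b* (0.0242 and 0.024) and -0.49 for *Cdkn2d* (0.0376 and 0.0373). The exact sign-flip test over 4 lines gave 0.125 for each, the smallest p it allows.

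*Cdkn2c* moved the other way, higher at passage 25 in 4 of 4 lines. It read 121 and 147 in pre-iPS, 119 and 211 in the control, 136 and 193 in clone 1 and 115 and 163 in clone 2 at passages 5 and 25, and the passages did not overlap. The change of 0.52 (SE 0.14) had an adjusted p of 0.0598 in limma and 0.0458 in edgeR. *Rb1* was also higher at passage 25 in 4 of 4 lines, by 0.16 (SE 0.07, adjusted p = 0.167). *Cdkn1c* had 1363 and 846 in the control, 1272 and 993 in clone 1 and 1370 and 808 in clone 2 but 624 and 781 in pre-iPS, at passages 5 and 25. The passage change of pre-iPS less that of the iPS lines was 0.92 (SE 0.21), and no gene of the 10 passed the adjusted p of that test in limma. Its pre-iPS side rests on 1 library at each passage, and 8 libraries leave this fit little to estimate the spread. The test could hardly pass any gene, so nothing is drawn from the missed threshold. Without pre-iPS passage 5 or 25, the passage change of *Cdkn1c* was -0.6 (adjusted p = 0.048 and 0.0486). *Cdkn2a*, *Cdkn1b*, *Trp53* and *Mdm2* had changes of -0.25, -0.09, -0.08 and -0.03, none past the adjusted p. Between MEF passages 2 and 4, the log2 changes of the 10 genes lay between -0.06 and 0.11.

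**Figure D4:**
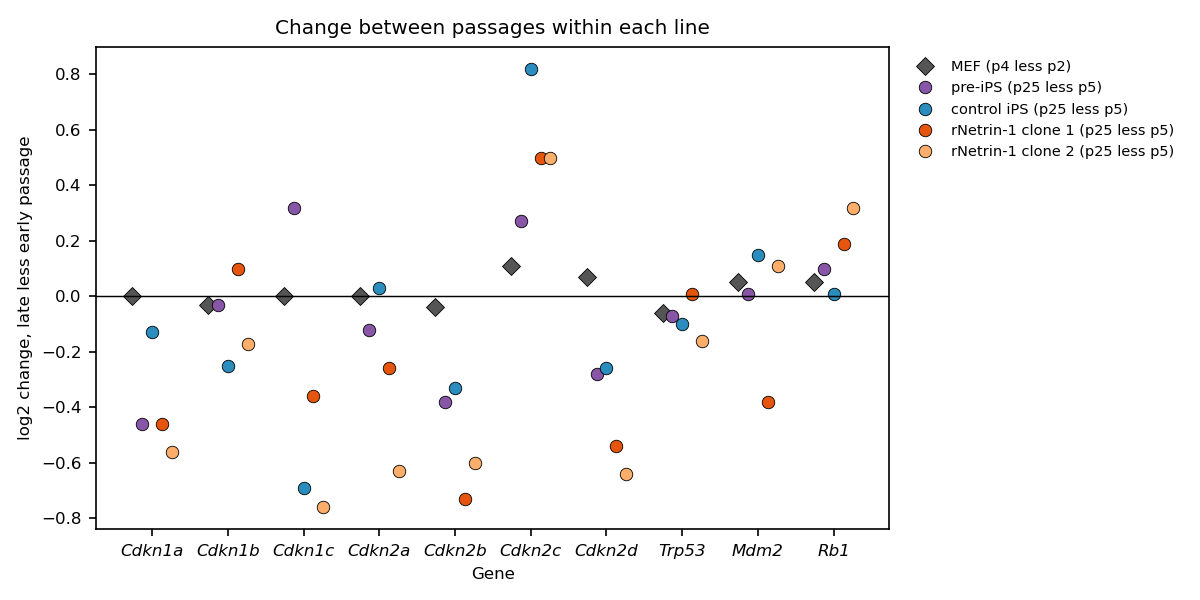
Log2 change from the earlier to the later passage (y axis) of each gene (x axis) in each of the 5 lines, with diamonds for MEF (passage 2 to 4) and circles for the other lines (passage 5 to 25). Cdkn1a, Cdkn2b and Cdkn2d lie below 0 in the 4 reprogrammed lines and Cdkn2c above 0, from 0.27 to 0.82.

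The other genes of the pathway were taken from lists. Each count by adjusted p is to be read against the share of all genes that passed it, 79.3% in MEF against iPS, 39.6% in pre-iPS against iPS, 4.08% in clones against control and 10.9% at passage 25. E2F targets, the S-phase genes that Rb restrains, were lower in MEF than in iPS in 20 of 20 by adjusted p and in 15 of 20 with the fold threshold, with a list median of -1.46. With housekeeping scaling 18 of the 20 passed the adjusted p and 11 the stricter rule, all 11 lower. *Mybl2*, a cell cycle transcription factor, differed by -3.33 (SE 0.15, adjusted p = 1.53e-07) and *Cdt1*, which licenses replication origins, by -2.62 (SE 0.12, 1.43e-07). In pre-iPS, 16 of 20 were lower than in iPS by adjusted p and 1 with the fold threshold, *Mybl2* at -1.71 (SE 0.15, 6.92e-05), and the list median was -0.49. Between MEF and pre-iPS 19 of 20 were lower in MEF by adjusted p. None of the 20 passed between the rNetrin-1-derived clones and the control by either rule.

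Among the CDKs and cyclins that the inhibitors bind, 1 of 9 was higher and 5 lower in MEF by adjusted p. *Ccnd2*, a D cyclin, was higher by 2.44 (SE 0.25, adjusted p = 2.05e-05), with means of 39200 in MEF, 12700 in pre-iPS and 7610 in iPS. *Ccne1*, the cyclin E that activates CDK2, differed by -1.36 and *Cdk6* by -1.07 (adjusted p = 5.94e-06 and 0.000129), neither past the fold threshold with housekeeping scaling. Pre-iPS had 3 of 9 higher and 3 lower than iPS. Of the Rb family and E2F genes, 2 of 12 were higher and 7 lower in MEF. *Rbl2*, the p130 relative of Rb, was higher by 1.31 (SE 0.09, adjusted p = 1.82e-06), and *E2f2* and *E2f8* lower by -2.94 and -1.22. *E2f2*, an activating E2F, had means of 150 in MEF, 2100 in pre-iPS and 1170 in iPS, so that like *Rb1* it was highest in pre-iPS. In pre-iPS against iPS, 3 of 12 were higher and 5 lower, with none past the fold threshold.

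Between MEF and iPS, the p53 targets other than *Cdkn1a* and *Mdm2* did not move one way. Of 23 tested, 10 were higher and 4 lower in MEF than in iPS by adjusted p, and 9 did not pass. The stricter rule took 3 higher and 1 lower, or 6 and 1 with housekeeping scaling. The death receptors *Fas* and *Tnfrsf10b* were higher by 2.64 and 1.23 (adjusted p = 3.17e-07 and 1.95e-06), and *Perp*, which also serves epithelial adhesion, was lower by -3.29 (6.15e-08). In pre-iPS 9 of 23 were higher and 1 lower than in iPS, together a share near the 39.6% of all genes. Over all 17075 genes tested, 3199 were higher and 3559 lower, and the list median was 0.23, against 0 over all genes. *Rrm2b*, a ribonucleotide reductase subunit induced by p53, alone passed the stricter rule, at 1.26 (SE 0.08, adjusted p = 1.12e-05), with means of 1990 in pre-iPS, 744 in MEF and 832 in iPS. Of 17 regulators and relatives of p53, 3 were higher and 12 lower in MEF than in iPS. The relative *Trp73* was nearly absent in MEF (mean 1.7) and had a mean of 342 in iPS, the checkpoint kinase *Chek1* was lower in MEF by -2.14, and the relative *Trp63* was higher by 1.43. In pre-iPS the deacetylase *Sirt1* was lower than in iPS by -1.48 (SE 0.14, adjusted p = 9.17e-05), and of this list 3 of 17 were higher and 5 lower. Between clones and control, 1 of 23 p53 targets and 0 of 17 regulators passed the adjusted p, beside 4.08% of all genes.

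Regulators of the *Cdkn2a* locus differed in both directions. Of 19, 9 were higher and 5 lower in MEF than in iPS by adjusted p. Polycomb subunits, which silence the locus, went both ways. *Cbx7* was lower in MEF by -4.35 (SE 0.14, adjusted p = 3.06e-08), *Ezh2*, the H3K27 methyltransferase, by -1.57 (SE 0.06, 9.84e-08), and its partners *Suz12* and *Eed* by -1.35 and -0.98. *Bmi1* was higher by 1.35 (SE 0.1, 2.78e-06), *Cbx8* by 1.32 (SE 0.33, 0.00544) and *Ring1* by 0.51, and *Rnf2*, at -0.09, did not pass. The transcriptional repressors *Tbx2* and *Twist1* were higher by 3.66 and 3.57. *Cbx7* had a mean of 188 in MEF, 1420 in pre-iPS and 3910 in iPS and was lower in pre-iPS than in iPS by -1.44 (SE 0.14, adjusted p = 0.000122). *Tbx3* was lower in pre-iPS by -1.52 and, between the clones, higher in clone 2 by 1.67 (adjusted p = 0.0121). In pre-iPS against iPS, 4 of the 19 were higher and 7 lower.

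Genes for the degradation of p27 and p21 were lower in MEF in 6 of 10 and higher in 2, together a share near the 79.3% of all genes. *Dtl*, the substrate receptor that targets p21 in S phase, was lower by -1.52 (SE 0.12, adjusted p = 3.57e-06) and the scaffold *Cul4b* by -1.27. *Cul4b* was lower in pre-iPS too, by -1.28, where 1 of the 10 was higher and 3 lower. *Cul4b* is X-linked, and *Xist* differs between the lines as given above. Genes linked to senescence were higher in MEF in 11 of 12 by adjusted p, led by the secreted binding proteins *Igfbp7* and *Igfbp5* at 5.56 and 4.49, and *Lmnb1*, the lamin lost in senescent cells, was lower by -1.91 (SE 0.09, adjusted p = 1.63e-07). Fibroblasts in general secrete many of these, and all 10 fibroblast markers were higher in MEF as well. In pre-iPS 1 of the 12 was higher and 3 lower, and *Il6* alone passed between clones and control, at means of 14.5 and 3.54, close to the filter of 10, and not when only those lines were fitted. At passage 25, 2 of the 12 were higher and 2 lower by adjusted p. The protease gene *Mmp3* was higher by 1.36 (SE 0.11, adjusted p = 0.00133), and *Igfbp3*, another secreted binding protein, was lower by -1.07 (SE 0.17, 0.0116) with passages that overlap.

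**Figure D5:**
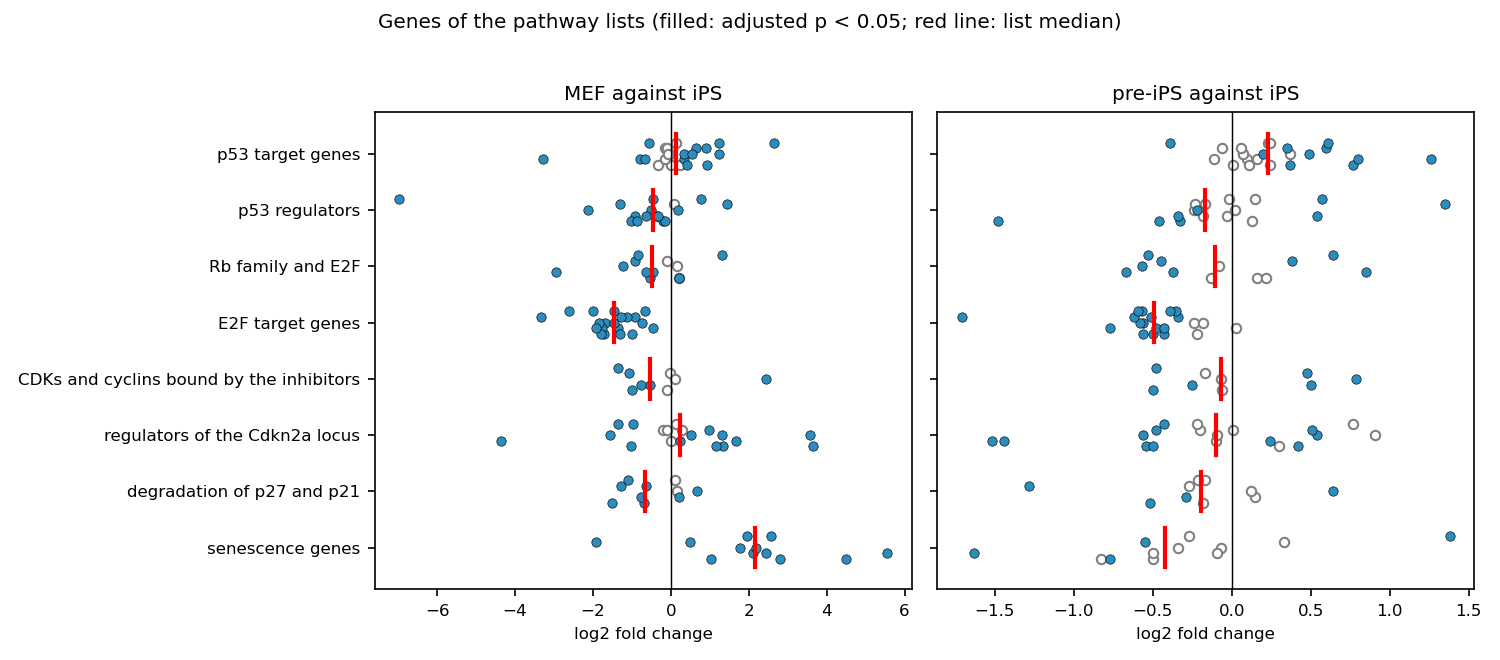
Log2 fold change (x axis) of each gene in 8 pathway lists (y axis) for MEF against iPS (left) and pre-iPS against iPS (right, another x scale), with filled points at an adjusted p under 0.05 and a red line at the list median. The E2F targets lie wholly below 0 in MEF (median -1.46), while p53 targets lie on both sides (median 0.14).

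Over the 10 libraries, *Cdkn1a* and *Cdkn2a* followed each other closely (Pearson r 0.964 on log2 values), as did *Cdkn1b* and *Cdkn2b* (0.949). *Trp53* ran against *Cdkn2b* (-0.94). *Rb1* had no member above 0.158 and ran against *Cdkn1c* (-0.75), *Mdm2* (-0.57) and *Cdkn2c* (-0.5). The genes outside the list most like each were *Tradd* and *Nt5c* for *Cdkn1a* (0.99 each), *Nradd* and *Trappc9* for *Cdkn1b*, *Wnt10b* and *Gnai3* for *Cdkn1c*, *Clic1* and *Tomm40l* for *Cdkn2a*, and *Pla2r1* and *Chid1* for *Cdkn2b*. They were *Dnm1* and *Gxylt2* for *Cdkn2c*, *Ostf1* and *S100a6* for *Cdkn2d*, *Tuba1b* and *Chd4* for *Trp53*, *Irf5* and *Hcls1* for *Mdm2* and *Eif2ak4* and *E330020D12Rik* for *Rb1*, with r of 0.955 to 0.997. These are descriptions over 10 libraries of 5 lines, in which the 2 MEF libraries stand apart from the other 8.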

How the data were processed

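Poly(A) RNA of 10 libraries was made with a TruSeq kit that does not mark strand and read as 50 nt single reads from 1 lane. The submitters' processing notes name FastQC, CASAVA 1.8.2, TopHat2 2.0.8b, HTSeq 0.5.3p9, edgeR and mm10. The annotation and strand setting are not given in the sources used here. The authors deposited a signal, edgeR pseudo-counts, in which the reads of each gene are scaled to a common library size. The totals of these values differ between MEF and the other lines, as given above. Whole reads were recovered for 100% of values in every library (tolerance 0.1 read). Intervals from counting alone are small at this depth, and among the 10 genes widest for *Cdkn2c*.

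Tests took the genes that reached 10 in 2 or more libraries and were run with limma 3.58.1 in R 4.3.3 (eBayes with trend) on log2(value + 1), a scale that understates changes of low genes. Passage used the 8 pre-iPS and iPS libraries with line as a block. edgeR 4.0.16 (quasi-likelihood, TMM) on the recovered reads was added after seeing the data. Deviations from line means correlated between libraries of the same passage in 6 of 6 pairs of lines (r 0.235 to 0.504), so passage numbers pair the libraries. The members and lists were chosen with earlier results of these data known. From each pathway list, the text names up to 2 genes higher and 2 lower per comparison, those with the largest changes among genes past both criteria whose libraries do not overlap, and for each member the 2 genes with the highest correlation. *Xist*, *Igfbp3*, the Polycomb subunits other than *Cbx7* and *Ezh2*, and the genes that overlap members were named after their values were seen. Gene positions are from GENCODE M21 (GRCm38) and promoters from RefSeq.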

Additional observations from a re-analysis of the deposited data

How the results depend on the processing

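Of the members' log2 values under the alternatives, 1049 kept their direction and their side of the stricter rule (adjusted p and fold), 34 reversed, 6 became stronger and 1 weaker. Of the reversals none was of a difference past the adjusted p except *Rb1* in MEF against iPS, at 0.08 with housekeeping scaling. That scaling also put 6 of the 10 genes past both criteria in MEF against iPS and turned *Trp53* between the clones to -0.02. Quantile normalization turned *Cdkn1a* and *Cdkn2a* in MEF against pre-iPS to -0.26 and -0.1, *Cdkn2c* in pre-iPS against iPS to 0.07, *Cdkn1c* in clones against control to -0.01 and *Mdm2* at passage 25 to 0.02. With the adjusted p alone, 9, 6, 7 and 3 of the 10 genes passed in MEF against iPS, pre-iPS against iPS, MEF against pre-iPS and passage, and over all genes 13546, 6758, 12062, 697, 271 and 1869 passed in the 6 comparisons in the order of the report. edgeR on the recovered reads, added after seeing the data, called 8194, 2712, 7229, 387, 193 and 320 genes by the stricter rule in the same order. Genes with a mean of 50 or more gave 1758 in pre-iPS against iPS and 106 between the clones, where fewer genes were tested. Fitting only the lines compared gave 134 genes in place of 360 in clones against control and 6 in place of 165 between the clones. These fits had fewer libraries to estimate the spread and left out the MEF libraries, which lie closest together. The 2 effects were not told apart. For passage this setting took the 3 iPS lines without pre-iPS, and gave 160 genes at passage 25. The replicate block, that is passage 5 and 25 paired across lines, gave 564 genes in clones against control and 327 between the clones, and changed no call of the 10 genes other than those of *Cdkn1c* and *Cdkn2d* in pre-iPS against iPS. For the comparisons with MEF, no paired analysis was possible because MEF were taken at other passages.

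Leaving out 1 library at a time gave 0 to 1 of the 10 genes in pre-iPS against iPS. Over all genes it gave 120 (without control passage 25) to 419 in clones against control, 14 (without clone 1 passage 25) to 260 between the clones, and 94 (without clone 1 passage 5) to 288 at passage 25. The differences that changed sign were *Cdkn2d* in MEF against pre-iPS (-0.01 to 0.28), *Mdm2* in pre-iPS against iPS (-0.13 to 0) and *Mdm2* at passage 25 (-0.09 to 0.09). In clones against control they were *Cdkn1b* (-0.06 to 0.19), *Cdkn1c* (-0.33 to 0.36), *Cdkn2c* (-0.5 to 0.32), *Cdkn2d* (-0.02 to 0.3) and *Mdm2* (-0.04 to 0.15). Between the clones they were *Cdkn1b* (-0.13 to 0.04), *Cdkn1c* (-0.47 to 0.29), *Cdkn2b* (-0.71 to 0.02), *Cdkn2c* (-0.49 to 0.01), *Cdkn2d* (-0.4 to 0.25), *Mdm2* (-0.26 to 0.12), *Rb1* (0 to 0.32) and *Trp53* (-0.04 to 0.12). A line left with 1 library was assumed to vary like the others. The lowest value of the 10 genes was 115, for *Cdkn2c*, which had 116 to 202 reads in the reprogrammed lines, so that counting error adds to its spread. The precision of the other genes is set mainly by 2 passages of 1 culture per line.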
